A study of Mus musculus with 97 samples.

Results

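Hippocampus was compared with cortex in vehicle-treated APOE3 mice, using 16 of the 97 libraries of the study. The 8 libraries labelled hippocampus and the 8 labelled cortex were chosen by genotype, treatment and region in their titles, with no use of measured values. All mice were older animals with human APOE3 knocked in. Both groups received the same vehicle, 50% dimethyl sulfoxide in phosphate-buffered saline, injected into the peritoneum 2 times a week for 2 weeks. Each library is 1 captured region of a brain section of 8 µm, read with NanoString GeoMx spatial profiling and its whole-transcriptome mouse panel, in which ultraviolet light releases sequencing tags from probes bound to RNA. The labels do not say how the regions were outlined, nor which regions came from the same mouse. All p-values below are over regions, and are too small where regions share a mouse. Other libraries were used for interaction tests, for region tests from those fits and for alternative fits. They were 17 of APOE3 mice given doxorubicin plus docetaxel, 16 of APOE3 mice given doxorubicin plus cyclophosphamide, and 16 of vehicle-treated APOE4 mice.

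The hippocampus and the neocortex are both made mainly of excitatory and inhibitory neurons, astrocytes, oligodendrocytes and microglia, but their neurons differ in origin, wiring and gene expression. The pyramidal cells of the hippocampal CA fields and the granule cells of the dentate gyrus carry transcription factors such as Zbtb20 and Prox1. Neocortical projection neurons carry layer factors such as Cux2, Rorb and Fezf2.

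The libraries were shallow. Total counts ran from 25314 to 36372 in hippocampus and from 24333 to 36358 in cortex, and every gene holds at least 1 in these totals. Over that lowest value, the libraries held 5352 to 16410 counts in hippocampus (median 10346) and 4371 to 16396 in cortex (median 5191). The negative probe, a measure of background without a mouse target, stood at 1.07 to 1.41 in hippocampus and at 1.06 to 1.36 in cortex. Cortex libraries 3 and 4 were the deepest of their region and the first pair of each region had the fewest counts over the tested genes, 841 to 1499 a library. Hippocampus library 5 stood apart by the smallest scaling factor, 0.463, against 0.758 or more in the rest. Library measures, other than this factor, were compared with a two-sided exact permutation test over 8 libraries against 8, and none of the 4 passed. The ratio of hippocampus to cortex was 1.09 for the negative probe (exact p = 0.0747), 1.29 for the counts of the tested genes (exact p = 0.313) and 1.52 for the counts over the lowest value (exact p = 0.102). On average 36.8 genes in hippocampus and 47.1 in cortex lay above 5 times the negative probe (exact p = 0.204). The smallest of the 4 p-values adjusted over these measures was 0.203. Without cortex library 3 or 4 the ratio of counts over the lowest value was 1.73 or 1.71 (exact p = 0.0305 and 0.0351, unadjusted). The ratio of the negative probe was 1.11 without cortex library 3, cortex library 4 or hippocampus library 5 (exact p = 0.0196, 0.0381 and 0.0242, unadjusted).

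The region labels could not be checked against the region markers given here, because these lay at background. Prox1 stood at the lowest value of 1 in all 16 libraries. The 6 defining hippocampus markers, Prox1, Wfs1, Zbtb20, Spink8, Fibcd1 and C1ql2, together held 0 to 5 counts over the lowest value in a hippocampus library and 0 to 6 in a cortex library. The 5 cortex markers Cux2, Rorb, Fezf2, Lamp5 and Tle4 held 0 to 3 in a hippocampus library and 0 to 3 in a cortex library. Per 10000 counts of untested genes, the hippocampus markers came to 3.08 in hippocampus and 4.24 in cortex, where an equal share for every gene would give 3.01. The cortex markers came to 1.85 in hippocampus and 2.01 in cortex, where an equal share would give 2.51. The following defining markers of cell types were as low. Slc17a7, the glutamate transporter of excitatory synaptic vesicles, averaged 1.38 ± 0.52 counts in hippocampus and 2.25 ± 1.04 in cortex (SD, n = 8 each). Gad1, of inhibitory neurons, averaged 1.63 and 1.5, Gfap, of astrocytes, 1.63 and 1.25, Mbp, of myelin, 1.38 in both, and Aif1, of microglia, 1.5 and 1.38. Apoe, read by a mouse probe, averaged 1.88 ± 1.36 and 1.38 ± 1.06 counts.

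Signal well above background came from few genes, and most of them differed between the regions. Of 19962 genes, 27 passed the filter on low counts (edgeR's filterByExpr, minimum count 10). Of the 27, 22 differed at an adjusted p under 0.05 in edgeR's quasi-likelihood test, which is 81.5% of the genes tested. The filter needs enough counts in only 8 of the 16 libraries, so a gene could be tested through 1 region alone. Gm40755 and Fdx2 had median counts of 9.5 and 7.5 in hippocampus, and 29.5 and 22 in cortex. The share called moved with the filter, to 33 of 59 genes at a minimum count of 3 and 0 of 19962 without a filter. There were 11 genes higher in hippocampus (40.7%) and 11 lower (40.7%). In captured regions, which hold many cells, fewer cells of a type and less RNA per cell cannot be told apart. All 22 had the same direction within each of 4 stretches of the collection plate (8 wells each, holding 2 of these libraries from each region), and for all 22 each of the 8 hippocampus libraries lay on the called side of the cortex mean. The 22 were called on these same libraries, so this is a description and no separate support. Among the genes not called, Coa5 also kept its direction in all 4 stretches. For Coa5 and Ctxn1, also not called, all 8 hippocampus libraries lay below the cortex mean. The median log2 fold change of hippocampus over cortex was 1.10 for the 11 higher genes and -0.90 for the 11 lower ones, against -0.36 for all 27. In 9 of the 27 genes (33.3%) the normalised counts of the groups did not overlap, and these were 5 of the higher and 4 of the lower genes. Before scaling for depth, the counts overlapped in every tested gene (0 of 27 apart, 0.00%). Normalised counts are counts divided by each library's effective size and set to the mean size of the 16 libraries.

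**Figure D1:**
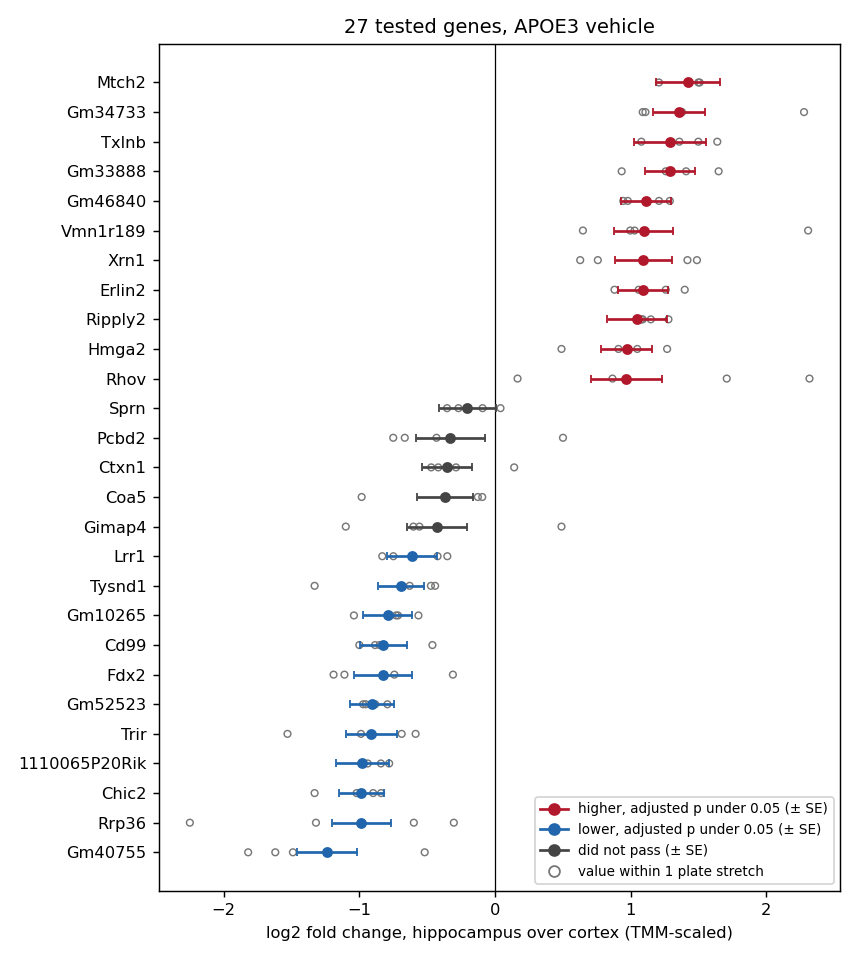
Log2 fold change of hippocampus over cortex for the 27 tested genes in APOE3 vehicle libraries (filled points ± SE, n = 8 regions each), with the value within each of the 4 plate stretches as open circles. The 11 higher genes lie between 0.97 and 1.42 and the 11 lower genes between -1.24 and -0.61, with every open circle of these 22 on the same side of 0.

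The number of genes called in each direction depended on the scaling, so the split is given under each one. Under TMM, which takes the middle of the tested genes as fixed, it was 11 higher and 11 lower. The TMM factors themselves differed by region, running from 0.463 to 0.948 in hippocampus and from 1.11 to 1.63 in cortex. Upper-quartile scaling in edgeR gave the same split, as did DESeq2, which brings its own test as well as its own size factors. Like TMM, both take their factors from the 27 tested genes, of which 22 were called. Scaling to tested totals, the sum over the 27 genes, gave 5 higher and 16 lower, scaling to the negative probe 2 higher and 11 lower, and scaling to all counts over the lowest value 0 higher and 16 lower. The median log2 fold change of the 27 genes moved with it, to -0.15 under upper-quartile scaling, -1.04 under tested totals, -0.78 under the negative probe and -1.25 under counts over the lowest value. None of the 22 genes changed sign under any of these scalings. Mtch2 and Gm33888 were called higher under both the tested totals (log2 0.69 and 0.59, adjusted p = 4.19e-07 and 0.002) and the negative probe (log2 0.95 and 0.81, adjusted p = 0.0215 and 0.0431), all by edgeR. All 11 lower genes passed under TMM, the tested totals, the negative probe and the counts over the lowest value.

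**Figure D2:**
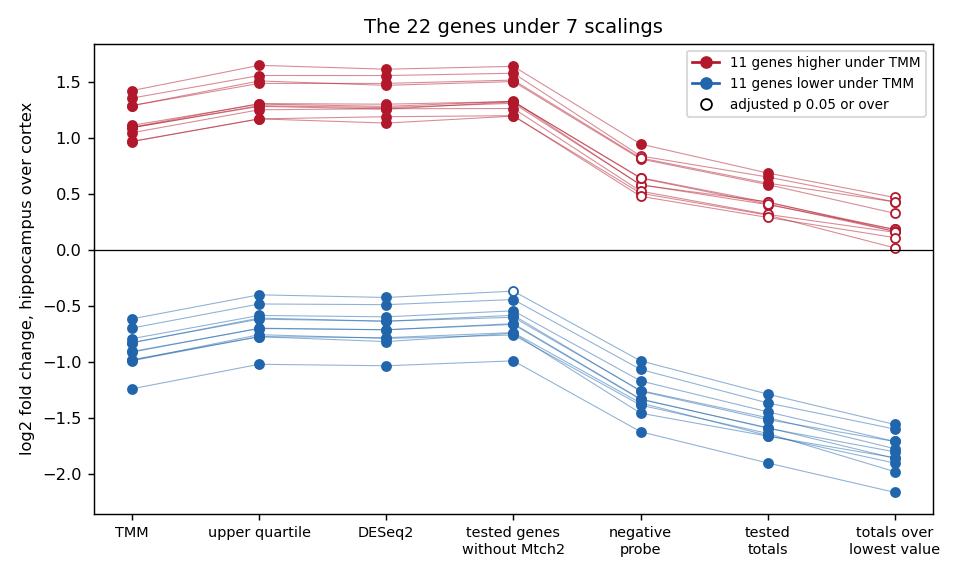
Log2 fold change of hippocampus over cortex for the 22 genes under 7 ways of scaling the libraries, with genes higher under TMM in red, genes lower in blue, and open points where the adjusted p was 0.05 or over. The DESeq2 points also come from that tool's own test. All red points lie above 0 and all blue points below 0, while the whole set lies lowest under the totals over the lowest value, where no red point is filled.

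Mtch2, an insertase of the mitochondrial outer membrane that also takes part in apoptosis, gave the highest counts in both regions. Its deposited counts ran from 659 over a median of 1680 to 3104 in hippocampus, against 294, 844.5 and 1334 in cortex. Normalised, they ran from 1554 to 4217 in hippocampus (mean 2101 ± 869) and from 476.3 to 1167 in cortex (mean 783 ± 217; SD, n = 8 each). The lowest hippocampus library was above the highest cortex library. Mtch2 was 2.68-fold higher in hippocampus (log2 1.42, SE 0.23, edgeR adjusted p = 1.62e-06), with 1.21 to 1.51 on the log2 scale in the 4 stretches. Without hippocampus library 5, whose normalised count was 4217, it was 1.20 (SE 0.17, adjusted p = 6.16e-08). Mtch2 held 60.0 ± 6.2% of the counts of the tested genes in hippocampus and 37.2 ± 7.3% in cortex. The 10 other higher genes and Mtch2 together held 82.8 ± 3.9% in hippocampus and 53.3 ± 9.4% in cortex, and the 11 lower genes 14.9 ± 3.5% and 42.1 ± 8.9%. Without Mtch2, the higher genes held 22.7% and 16.1%. Leaving Mtch2 out of the scaling kept 21 of the 22 calls, with Lrr1 the exception (log2 -0.37, adjusted p = 0.0508). Of the 30 listed genes of the mitochondrial outer membrane and apoptosis, Mtch2 was the 1 gene tested: Tomm20 and Tomm7, of the import pore for mitochondrial proteins, averaged 2.00 and 1.63 counts in hippocampus and 1.13 and 1.75 in cortex.

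**Figure D3:**
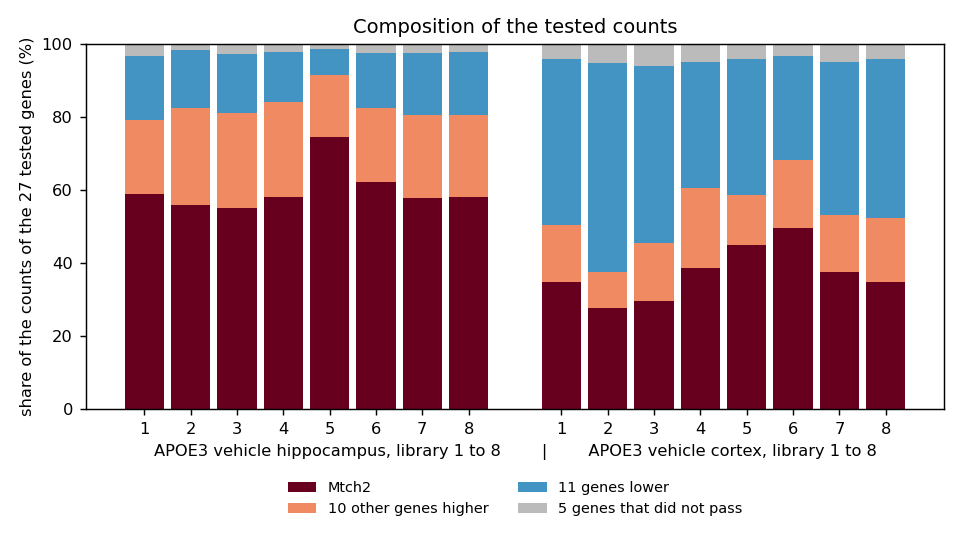
Share of the counts of the 27 tested genes in each library, in percent, held by Mtch2, by the 10 other genes called higher, by the 11 called lower and by the 5 that did not pass. Mtch2 holds 55.0 to 74.5% in the 8 hippocampus libraries and 27.8 to 49.5% in the 8 cortex libraries.

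Gm33888, Gm34733 and Gm46840, named as predicted genes, were also higher in hippocampus. Gm33888 had 79, 199 and 387 counts (lowest, median, highest) in hippocampus and 34, 104 and 204 in cortex. Its normalised counts averaged 250.1 ± 53.7 in hippocampus and 101.7 ± 28.3 in cortex and did not overlap, the lowest hippocampus library being at 201.9 and the highest cortex library at 135.4. The difference was 2.45-fold (log2 1.29, SE 0.18, adjusted p = 1.40e-07). Gm34733 averaged 54.9 ± 16.1 and 20 ± 6.1, again without overlap, a difference of 2.56-fold (log2 1.36, SE 0.19, adjusted p = 1.40e-07). Gm46840, a long noncoding RNA, averaged 175.4 ± 49.3 and 80.6 ± 22.1 (log2 1.11, SE 0.19, adjusted p = 1.62e-06), with 1 or more libraries of each region in the range of the other. Gm34733 and Gm46840 also passed with tested totals as the scaling. They did not pass with the negative probe (edgeR adjusted p = 0.0526 and 0.126) or the counts over the lowest value (0.183 and 0.582). Within regions, the 3 tested genes most like Mtch2 over the 16 libraries were Gm33888, Gm34733 and Ripply2, with Pearson correlations of 0.76, 0.68 and 0.67; the points share their library and its scaling. Hippocampus library 5 had the highest value of its region for all of these genes. Without it, the correlations were 0.70, 0.60 and 0.50, and Erlin2 (0.55) and Xrn1 (0.51) ranked above Ripply2.

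Gm33888 and Gm34733 lie on the same chromosome, at chr16:89129257-89133082 and chr16:89226811-89227103 in RefSeq's annotation of GRCm38.p6, the assembly of the mm10 build that the submitters name. They are 93729 bases apart with 9 annotated genes between them. The 2 of these 9 in the file, Gm6358 and Krtap20-2, were not tested and averaged 1.25 and 1.38 counts in hippocampus and 1.25 and 1.13 in cortex, at the level of the median gene (1.38 and 1.25). Mtch2 lies at chr2:90847090-90866810, and Chic2, the lower gene with the smallest p, at chr5:75005004-75044641. The promoters of these 4 genes, from RefSeq on GRCm38.p6, are shown because these are the 3 higher genes and the 1 lower gene with the smallest p. Each runs from 250 bases before to 50 bases after the start that the promoter table gives, 5′ to 3′ on the gene's strand. For Mtch2 that start lies 65 bases inside the annotated span above, and for the other 3 genes it is the span's own end. Capitals mark TATAAA (the TATA box), CCAAT (the CCAAT box), GGGCGG (the GC box) and CACGTG (the E box), each searched on both strands.
Gm33888 (chr16:89129007-89129306, plus strand): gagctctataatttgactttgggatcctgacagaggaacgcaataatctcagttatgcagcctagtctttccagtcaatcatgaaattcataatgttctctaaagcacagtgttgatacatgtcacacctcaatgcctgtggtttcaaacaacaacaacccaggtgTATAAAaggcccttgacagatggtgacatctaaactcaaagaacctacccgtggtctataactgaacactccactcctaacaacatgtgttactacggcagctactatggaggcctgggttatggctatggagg
Gm34733 (chr16:89226561-89226860, plus strand): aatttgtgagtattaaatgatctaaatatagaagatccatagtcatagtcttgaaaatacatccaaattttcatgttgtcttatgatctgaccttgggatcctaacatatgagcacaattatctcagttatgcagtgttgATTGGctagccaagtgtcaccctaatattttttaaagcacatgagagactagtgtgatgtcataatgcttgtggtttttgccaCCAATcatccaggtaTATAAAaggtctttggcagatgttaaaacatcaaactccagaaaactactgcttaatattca
Mtch2 (chr2:90846905-90847204, plus strand): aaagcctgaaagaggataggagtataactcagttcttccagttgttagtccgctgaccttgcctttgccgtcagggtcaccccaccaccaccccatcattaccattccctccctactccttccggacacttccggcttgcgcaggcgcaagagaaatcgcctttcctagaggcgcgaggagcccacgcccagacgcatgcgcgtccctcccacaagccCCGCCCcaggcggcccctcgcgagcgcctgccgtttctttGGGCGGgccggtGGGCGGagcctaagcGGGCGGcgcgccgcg
Chic2 (chr5:75044592-75044891, minus strand): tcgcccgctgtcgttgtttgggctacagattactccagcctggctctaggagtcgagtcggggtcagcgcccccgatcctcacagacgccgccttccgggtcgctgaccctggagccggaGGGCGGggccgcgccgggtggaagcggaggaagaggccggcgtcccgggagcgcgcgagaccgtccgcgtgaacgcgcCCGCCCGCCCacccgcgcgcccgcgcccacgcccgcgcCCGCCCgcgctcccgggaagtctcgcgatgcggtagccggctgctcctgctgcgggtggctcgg

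The promoters of both chromosome 16 genes hold TATAAA, which 14.2% of the 27025 promoters in the table hold, while those of Mtch2 and Chic2 hold GGGCGG, which 35.9% hold. In Chic2, GGGCGG matches overlap each other on the opposite strand. The Gm33888 and Gm34733 promoters have the same base at 23.3% of their 300 positions, lined up without gaps or shifts. This measure misses stretches that both hold at different positions, such as atctcagttatgcag, so it does not show how alike the 2 promoters are. Exactly 1 promoter was found for 9 of the 11 higher and 6 of the 11 lower genes. TATAAA was found in 2 of the 9 and 0 of the 6, GGGCGG in 5 and 4, CCAAT in 2 and 1 (37.9% of all promoters) and CACGTG in 0 and 2 (7.24%). The median share of G and C was 55.0% for the higher and 60.4% for the lower genes, against 52.7% for all promoters.

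Erlin2, Xrn1, Hmga2 and Ripply2 were also higher in hippocampus under TMM. None of these 4 passed with tested totals as the scaling (log2 0.41, 0.43, 0.31 and 0.32, adjusted p = 0.0684, 0.0684, 0.154 and 0.151), nor with the negative probe or the counts over the lowest value. Erlin2, which helps to degrade membrane proteins of the endoplasmic reticulum, had 19, 42 and 68 counts in hippocampus and 10, 20 and 55 in cortex. Its normalised counts averaged 49.9 ± 10.8 in hippocampus and 22.5 ± 5.8 in cortex and did not overlap (log2 1.09, SE 0.18, adjusted p = 1.62e-06). Of the 20 listed genes of the endoplasmic reticulum membrane and its degradation pathway, Erlin2 was the 1 gene tested, and its partner Erlin1 averaged 1.63 counts in hippocampus and 1.75 in cortex. Xrn1, the cytoplasmic exoribonuclease that degrades decapped mRNA, averaged 49.7 ± 15.3 and 23.6 ± 9.6 (log2 1.09, SE 0.21, adjusted p = 1.41e-05), with some overlap. It was the 1 gene tested of 20 listed for RNA decay and processing. Hmga2, an architectural chromatin protein best known from embryonic tissue, averaged 69.1 ± 15.3 and 35.6 ± 11.9 (log2 0.97, SE 0.19, adjusted p = 1.69e-05). Ripply2, a transcriptional corepressor known from somite formation, averaged 59.5 ± 27.6 and 27.2 ± 11.4 (log2 1.05, SE 0.22, adjusted p = 4.24e-05). The groups overlapped for Hmga2 and Ripply2.

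The remaining higher genes had few counts. Vmn1r189, of the vomeronasal receptor family, had 5, 14.5 and 34 counts in hippocampus and 1, 9.5 and 19 in cortex. Its normalised counts averaged 18.5 ± 5.0 and 8.2 ± 3.0 and did not overlap (log2 1.10, SE 0.22, adjusted p = 2.08e-05). Txlnb, a taxilin known from muscle, averaged 18.2 ± 8.1 and 6.98 ± 3.77 (log2 1.29, SE 0.26, adjusted p = 2.57e-05). Rhov averaged 16.3 ± 5.2 and 7.32 ± 4.37, with the highest p of the 11 (log2 0.97, SE 0.26, adjusted p = 0.00082). Its values within the stretches ran from 0.17 to 2.32 on the log2 scale. With tested totals as the scaling, neither Vmn1r189 nor Rhov passed (log2 0.41 and 0.29, adjusted p = 0.112 and 0.282), while Txlnb did (log2 0.60, adjusted p = 0.0327). Txlnb, Vmn1r189 and Rhov did not pass with the negative probe or with the counts over the lowest value (edgeR adjusted p for Txlnb = 0.0887 and 0.306).

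**Figure D4:**
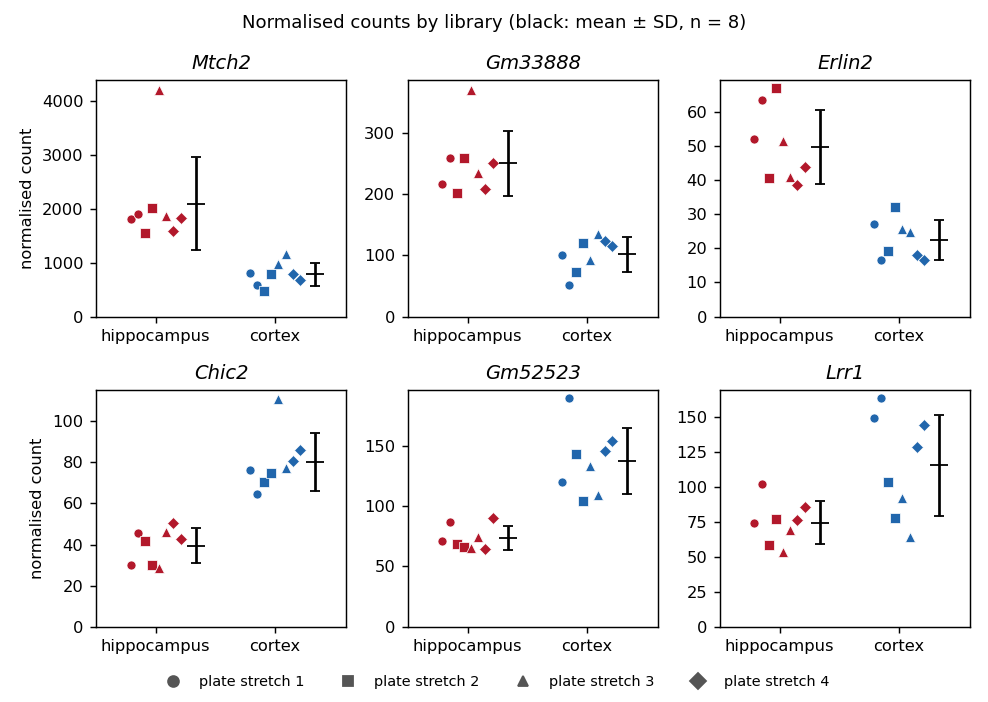
Normalised counts of 6 genes in each APOE3 vehicle library, hippocampus in red and cortex in blue, with the mean ± SD (n = 8) in black and a symbol for each plate stretch. The groups do not overlap for Mtch2, Gm33888, Erlin2, Chic2 and Gm52523, and they overlap for Lrr1, the called gene with the highest p.

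Among the lower genes, Chic2, a palmitoylated protein of vesicle and plasma membranes, had 11, 31.5 and 76 counts in hippocampus and 28, 78 and 169 in cortex. Its normalised counts averaged 39.4 ± 8.5 in hippocampus and 80.1 ± 14 in cortex, and the highest hippocampus library (50.3) was below the lowest cortex library (64.7). Hippocampus levels of Chic2 were 1.98-fold lower (log2 -0.98, SE 0.17, adjusted p = 1.73e-06), with -1.33 to -0.84 on the log2 scale in the stretches. Gm52523, a predicted gene, had 26, 57.5 and 123 counts in hippocampus and 44, 132.5 and 343 in cortex. It averaged 73.2 ± 9.8 and 137 ± 28 normalised counts, without overlap (log2 -0.90, SE 0.16, adjusted p = 4.80e-06). Gm10265, the lower gene with the highest counts, averaged 142 ± 26 and 246 ± 75 with overlap (log2 -0.79, SE 0.18, adjusted p = 0.000102). Gm40755, also a predicted gene, had the largest fall, 2.36-fold (log2 -1.24, SE 0.22, adjusted p = 4.97e-06), with means of 12.5 ± 5.4 in hippocampus and 31.8 ± 9.6 in cortex. 1110065P20Rik averaged 13.2 ± 3.2 and 24.5 ± 3.5 (log2 -0.98, SE 0.20, adjusted p = 2.08e-05).

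Trir, Rrp36 and Cd99 were lower in hippocampus as well. Trir, an RNase that binds the telomerase RNA component, had 8, 11.5 and 33 counts in hippocampus and 13, 32 and 78 in cortex. It averaged 18.8 ± 4.9 and 35.3 ± 6.7 normalised counts without overlap (log2 -0.91, SE 0.19, adjusted p = 2.57e-05). Rrp36, a nucleolar protein of ribosomal RNA processing, averaged 11.2 ± 2.6 and 24.7 ± 8.7, also without overlap (log2 -0.99, SE 0.22, adjusted p = 6.63e-05), although its values within the stretches ranged from -2.25 to -0.30. Cd99, a surface glycoprotein of cell adhesion and leukocyte migration, averaged 38.8 ± 8.5 and 68.0 ± 14.8 (log2 -0.82, SE 0.17, adjusted p = 3.77e-05).

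Tysnd1, a protease that processes peroxisomal enzymes, averaged 47.7 ± 7.5 in hippocampus and 79.9 ± 20.5 in cortex (log2 -0.70, SE 0.17, adjusted p = 0.000225). Fdx2, a mitochondrial ferredoxin of iron-sulfur cluster assembly, averaged 12.9 ± 3.1 and 23.1 ± 6.6 (log2 -0.83, SE 0.21, adjusted p = 0.000451). Lrr1, a substrate receptor of a cullin ubiquitin ligase, averaged 74.6 ± 15.3 and 116 ± 36 (log2 -0.61, SE 0.18, adjusted p = 0.00203). Without cortex library 6, Lrr1 and Tysnd1 lost their calls (log2 -0.37 and -0.45, adjusted p = 0.125 and 0.0533). Both had the same direction in all 4 stretches.

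The other 5 tested genes did not pass. Ctxn1, a small neuronal membrane protein named for its level in cortex, averaged 20 ± 2.3 in hippocampus and 24.4 ± 6.9 in cortex (log2 -0.36, SE 0.18, adjusted p = 0.0696). Gimap4, a GTPase of lymphocytes, gave -0.43 (SE 0.22, adjusted p = 0.0696). Coa5, which takes part in the assembly of cytochrome c oxidase, gave -0.37 (SE 0.20, adjusted p = 0.0863) and was the 1 gene tested of 35 listed for oxidative phosphorylation. Pcbd2, a pterin dehydratase, gave -0.33 (SE 0.25, adjusted p = 0.207) and Sprn, a relative of the prion protein, -0.20 (SE 0.21, adjusted p = 0.344). Under the tested totals all 5 passed as lower, with log2 values of -1.13 to -0.89.

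The gene lists of cell types and pathways were almost wholly below what the filter tests. Of 457 genes in 21 lists, 4 were tested, namely Mtch2, Xrn1, Erlin2 and Coa5, so the lists are described by level. The median member of a list lay at most at 0.884 times the negative probe in hippocampus and 0.941 times in cortex, against 0.833 and 0.918 times for the median of all genes. Olig2, the lineage factor of oligodendrocytes, had the highest mean count of the untested list members over both regions, at 7.75 ± 4.92 counts in hippocampus and 11.5 ± 6.7 in cortex. Among genes of glycolysis, Aldoa averaged 1.13 ± 0.35 counts and Pkm 1.63 ± 0.92 in hippocampus, against 3.88 ± 1.96 and 4.38 ± 3.54 in cortex, while Pdk1, a kinase that inhibits pyruvate dehydrogenase, averaged 3.13 ± 2.42 in hippocampus and 1.38 ± 0.74 in cortex. In astrocytes' genes, Glul, the glutamine synthetase, averaged 3.25 ± 1.28 and 1.38 ± 0.74, Ndrg2 3.13 ± 1.96 and 2.13 ± 1.25, and Clu 2.25 ± 1.28 and 1.88 ± 1.13. Among ribosomal proteins, Rpl3 averaged 2.00 ± 1.31 and 3.13 ± 1.46, Rps24 2.13 ± 1.55 and 2.63 ± 1.69, and Rps14 2.25 ± 0.71 and 1.88 ± 1.36 (SD, n = 8 each for all of these). Beside Olig2 and Tmed2, the naming rule takes 53 untested list members; they averaged 1.13 to 3.25 counts in hippocampus and 1.13 to 4.38 in cortex, with the higher mean in hippocampus for 29, in cortex for 21 and in neither for 3. These values are not scaled to depth and were not tested.

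Whether the region difference itself depends on treatment or genotype was asked with interaction tests. DD stands for doxorubicin plus docetaxel and DC for doxorubicin plus cyclophosphamide, given to APOE3 mice whose libraries are on the same plate (17 DD and 16 DC libraries). No gene passed for DD (0 of 34 tested, 0.00%; 0 at an unadjusted p under 0.05; 0 by DESeq2) or for DC (0 of 34, 0.00%; 3 at an unadjusted p under 0.05; 0 by DESeq2). All 22 called genes had the same sign in DD, DC and APOE4 vehicle libraries, which are separate from the 16 above, and 22, 19 and 21 of them passed there as well. The 5 tested genes that had not passed also kept their sign, apart from Gimap4 after DC (log2 0.58) and in APOE4 vehicle (0.006). The shared sign is thus not particular to the called genes. These region tests came from fits that also held the 16 libraries and shared their filter, scaling and spread. The region calls over all tested genes were 73.5% in DD, 64.7% in DC and 78.4% in APOE4 vehicle. Mtch2 had a log2 fold change of 1.55 (SE 0.26) in APOE3 vehicle, fitted with all APOE3 groups, beside 1.64 (SE 0.26) after DD and 1.64 (SE 0.27) after DC. Txlnb was the gene farthest apart after DC, at 1.44 (SE 0.27) in vehicle and 0.39 (SE 0.37) after DC, a difference of 1.04 (SE 0.45, unadjusted p = 0.0249, edgeR adjusted p = 0.490).

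Against APOE4 vehicle, 2 of 37 genes passed (5.41%). Gm52523 was lower in hippocampus by a log2 of -0.43 (SE 0.11) in APOE3 vehicle and -1.06 (SE 0.11) in APOE4 vehicle, a difference of 0.64 (SE 0.15, edgeR adjusted p = 0.00546). Tysnd1 had -0.22 (SE 0.14) and -0.91 (SE 0.13), a difference of 0.69 (SE 0.19, adjusted p = 0.0164). This fit shares its scaling and spread with the APOE4 libraries, and its APOE3 vehicle values were smaller than those of the 16 libraries alone, which were -0.90 for Gm52523 and -0.70 for Tysnd1. The difference was above 0 for 30 of the 37 genes, with a median of 0.37. With upper-quartile scaling the differences of Gm52523 and Tysnd1 turned sign, to -0.11 (SE 0.20) and -0.043 (SE 0.21), and neither passed (adjusted p = 0.735 and 0.914). The 1 gene called under that scaling was 1110065P20Rik, with a difference of -0.78 (SE 0.22, adjusted p = 0.0451), named here after its value was seen. DESeq2 and counts summed over runs of neighbouring wells called 0 genes, with 3 and 0 at an unadjusted p under 0.05. All APOE4 libraries were on the other plate, so genotype and plate cannot be told apart.

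**Figure D5:**
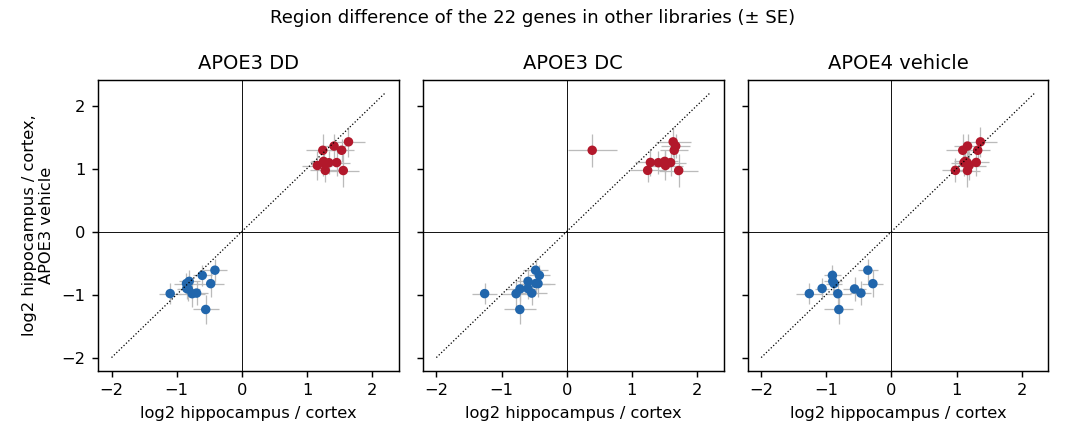
Log2 fold change of hippocampus over cortex of the 22 genes in APOE3 DD, APOE3 DC and APOE4 vehicle libraries (x axes, ± SE) against that in APOE3 vehicle (y axis, ± SE), with genes higher in red and lower in blue and equality as a dotted line. The y values come from the fit of the 16 libraries alone, and the x values from the joint fits, which have another filter and scaling. Distance from the dotted line is therefore not the difference that the interaction tests measured. All 22 points lie in the quadrants of equal sign in each panel.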

How the data were processed

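Per the labels' protocols, oligonucleotide tags were released by ultraviolet light from captured regions of mouse brain sections, and libraries were sequenced on an Illumina NovaSeq instrument. The genome build, per the submitters' processing notes, is mm10. Software and filters behind the counting are not given in the sources used. The authors deposited unscaled expected counts for each probe target in 1 table of 19963 rows (19962 genes and 1 negative probe). The deposited counts are whole numbers in all but 4 rows and never below 1 in the 16 libraries used. They were rounded before modelling. All 16 libraries were on 1 plate.

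Groups were taken from the titles of the libraries. These fall on the plate into 4 stretches of 8 wells, each from 2 neighbouring cortex wells to the next 2 wells of vehicle hippocampus. Stretches are not labelled as mice or slides. Over the 27 tested genes, deviations from the region means were averaged over the 2 libraries of a region in a stretch. Between hippocampus and cortex these averages correlated at 0.0043 to 0.557 in the same stretch (median 0.265), against -0.471 to 0.396 for other stretches (median -0.162). The 2 single libraries of a run of neighbouring wells correlated at -0.0929 to 0.306.

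The 16 libraries were fitted with edgeR 4.0.16 in R 4.3.3: filterByExpr with a minimum count of 10 and a minimum total of 15, TMM scaling over the tested genes, the quasi-likelihood F test and a Benjamini-Hochberg threshold of 0.05. Standard errors (SE) derive from the F statistic. Interactions were fitted over the 6 APOE3 groups or the 4 vehicle groups. For library measures, exact permutation tests (two-sided) ran over 12870 arrangements. Alternatives used DESeq2 1.42.0, limma 3.58.1 with voom, other scalings, filters and floors, other groups in the fit, sums or blocks over wells, and each library left out. The naming rule takes all genes that passed, the 5 that did not, tested list members, and the 3 members of a list with the highest values; not all of the last are printed. The comparison, the lists and this rule were chosen with earlier results of these data known. A cortex marker among them is not reported here and is left out of the marker sums. Coordinates and promoters come from RefSeq tables, which hold 26 of the 27 tested symbols.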

Additional observations from a re-analysis of the deposited data

Results flagged for a closer look

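Values far from the other 7 libraries of their region, by Dixon's test at its 95% critical value, came up in 8 of 64 groups of values. Chance gives about 1 in 20 for independent groups of normally distributed values. These groups share libraries and their scaling, so the 8 cannot be set against that rate. Hippocampus library 5 gave 4 of the 8, with Mtch2 among them both as a count and as a share. It had a normalised count of 4217 for Mtch2 (others 1554 to 2018), of 370.7 for Gm33888 (others 201.9 to 259.7) and of 120.4 for Ripply2 (others 33 to 67.3). Mtch2 held 74.5% of its tested counts (Clopper-Pearson 95% interval 72.9 to 76.0%, for counting error only), against 55.0 to 62.1% in the other hippocampus libraries. This library had 5352 counts over the lowest value, the fewest in hippocampus, and the smallest scaling factor; their part in these values was not tested. Without it, Mtch2, Gm33888 and Ripply2 had log2 fold changes of hippocampus over cortex of 1.20, 1.19 and 0.85, with edgeR adjusted p-values of 6.16e-08, 1.59e-07 and 0.000226.

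Hippocampus library 2 was high for Vmn1r189, at a normalised count of 29.6 (others 13.7 to 20.6), and for Rhov, at 27.3 (others 11.5 to 18.5). Hippocampus library 1 was high for Pcbd2, at 30.2 (others 5.71 to 13.3). Cortex library 5 was high for Chic2, at 111.0 (others 64.7 to 86.1). The region difference of Gm52523 and Tysnd1 in APOE3 vehicle libraries minus that in APOE4 vehicle libraries was 0.64 and 0.69 on the log2 scale and passed under TMM, beside a median of 0.37 over all 37 genes. With upper-quartile scaling both turned sign, to -0.11 and -0.043. Neither passed with that scaling, DESeq2 or sums over runs of wells, and genotype and plate cannot be told apart.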

How the results depend on the processing

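None of the 22 called genes changed sign under the 35 alternatives. Upper-quartile scaling, DESeq2, voom, values of 1 read as 0, 1 subtracted from every value, sums over runs of wells, and the run as a random block (within-run correlation 0.218) each kept all 22 calls. No paired analysis was possible because the labels of these groups give no shared numbers or mice; the plate stretch as a block, a match by plate position alone, kept all 22 calls. Scaling moved the number of higher genes from 11 to 5 (tested totals), 2 (negative probe, 13 calls in all) and 0 (counts over the lowest value). A minimum count of 3 tested 59 genes and gave 33 calls, 20 of them higher, and lost Lrr1 (log2 -0.40, edgeR adjusted p = 0.0629). Without a filter edgeR called 0 of 19962 (0 higher, 0 lower, 69 at an unadjusted p under 0.05). That fit adjusted over more genes and also took its scaling and spread from all genes. The median log2 fold change of the 27 genes was -0.67 in it. A minimum count of 5 gave 25 calls of 33 tested. Fitting all 6 APOE3 groups kept all 22 calls, and fitting the 4 vehicle groups lost Fdx2, Lrr1, Gm10265, Tysnd1 and Trir. Leaving out each library gave 20 to 24 calls, with 11 higher each time and 9 to 13 lower. Chosen after seeing the data, leaving out cortex libraries 3 and 4, or the 4 libraries with the fewest tested counts, kept all 22 calls. Signs reversed only among genes that had not passed: Sprn with upper-quartile scaling (0.0077), scaling without Mtch2 (0.025), leaving out single libraries (-0.31 to 0.056, above 0 without cortex 6) and with the 4 vehicle groups (0.25), where Ctxn1 (0.11), Pcbd2 (0.16), Coa5 (0.11) and Gimap4 (0.057) reversed too. The APOE4 interaction gave 2 calls above 0 by edgeR with TMM, 1 call below 0 with upper-quartile scaling (1110065P20Rik, -0.78), where Gm52523 (-0.11) and Tysnd1 (-0.043) turned sign, and 0 with DESeq2 or sums over runs. With each library left out, the hippocampus over cortex ratio was 1.07 to 1.11 for the negative probe. Its exact p was under 0.05 without hippocampus 5 (1.11, exact p = 0.0242), cortex 3 (1.11, exact p = 0.0196) and cortex 4 (1.11, exact p = 0.0381). The ratio was 1.42 to 1.73 for counts over the lowest value, with an exact p under 0.05 without cortex 3 (1.73, exact p = 0.0305) and cortex 4 (1.71, exact p = 0.0351). For tested counts it was 1.14 to 1.46. These exact p-values were not adjusted over the 4 library measures. The difference in genes above 5 times the negative probe was -13.8 to -5.82; above 2 times it was 693 (exact p = 0.200), more in hippocampus. The cause of these changes was not tested. At a minimum count of 10 the filter left 27 genes to test. In hippocampus libraries 60.6 to 90.1% of genes stood at the lowest value, and in cortex libraries 62.1 to 89.8%.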

Other observations

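With a minimum count of 3 in place of 10, 12 further genes passed edgeR's test at an adjusted p under 0.05, 9 higher and 3 lower in hippocampus. Their counts were low, so they are given as values. Tmed2, a cargo receptor of the early secretory pathway, averaged 11 counts in hippocampus and 6.25 in cortex (log2 1.38, SE 0.29, adjusted p = 1.11e-05). Gcsh, of the mitochondrial glycine cleavage system, averaged 4.50 and 2.38 (log2 1.41, SE 0.36, adjusted p = 0.000779). Calm2, a calmodulin gene, averaged 2.13 and 7.5 (log2 -1.24, SE 0.36, adjusted p = 0.00208), and Tubg1, the tubulin of microtubule nucleation, 3.5 and 10.9 (log2 -1.10, SE 0.32, adjusted p = 0.00222). The others were Etd, Olfr655, Eri3, Elof1, Tbcel, Rps26 and Inhbb, higher in hippocampus by log2 values of 0.87 to 1.23, and Gm9758, lower (log2 -0.94). These genes were singled out after their values were seen.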
